A study of Mus musculus with 10 samples.

Results

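The genes of taurine synthesis and transport in mouse liver are described here: Csad, Cdo1, Ado, Slc6a6 and Gadl1. A symbol match in the platform annotation gave 12 of the 45101 probe sets of the array (1 for Csad, 1 for Cdo1, 4 for Ado, 4 for Slc6a6 and 2 for Gadl1), and 5 of 18193 genes. The group was chosen from the known low Csad value of phenobarbital livers in these same data and completed by function, so the differences of its members between treated and control animals are a description, and no p-value is given for them. Livers came from 10 male B6C3F1/Crl mice, hybrids of a C57BL/6 father and a C3H/He mother, aged 29 to 32 days on receipt and kept for 5 days before random allocation. One group of 5 drank freely for 28 days from water holding phenobarbital at 0.05% (w/v). The remaining 5 were controls. Each animal's whole liver RNA was hybridised to 1 Affymetrix array, and the values are deposited log2 expression levels.

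Taurine is a sulphur-containing amino sulphonic acid that mouse hepatocytes make from cysteine and couple to bile acids before secretion. Cysteine dioxygenase, encoded by Cdo1, oxidises cysteine to cysteine sulphinate, and cysteine sulphinate decarboxylase, encoded by Csad, turns this into hypotaurine, which is then oxidised to taurine. Ado encodes an enzyme that makes hypotaurine from cysteamine, a product of coenzyme A breakdown, Slc6a6 encodes the sodium-dependent taurine transporter of the cell membrane, and Gadl1 encodes a decarboxylase related to Csad that acts on aspartate and, less well, on cysteine sulphinate.

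The starts of Csad are shown because Csad carried by far the widest difference of the group. RefSeq (GRCm38.p6) gives Csad 2 starts, 16009 bases apart on the minus strand of chromosome 15, and the 250 bases before each are printed 5′ to 3′ in lower case. The window before a Gadl1 start, on the plus strand of chromosome 9, is set beside them, with the single match to the nuclear receptor hexamer in capitals.
Csad, start at 102205052 (chr15:102205053-102205302): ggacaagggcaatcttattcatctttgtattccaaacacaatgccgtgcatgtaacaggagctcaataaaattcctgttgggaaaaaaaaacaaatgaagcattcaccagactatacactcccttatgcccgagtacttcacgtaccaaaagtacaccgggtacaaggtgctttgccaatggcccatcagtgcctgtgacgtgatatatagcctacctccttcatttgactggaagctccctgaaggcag
Csad, start at 102189043 (chr15:102189044-102189293): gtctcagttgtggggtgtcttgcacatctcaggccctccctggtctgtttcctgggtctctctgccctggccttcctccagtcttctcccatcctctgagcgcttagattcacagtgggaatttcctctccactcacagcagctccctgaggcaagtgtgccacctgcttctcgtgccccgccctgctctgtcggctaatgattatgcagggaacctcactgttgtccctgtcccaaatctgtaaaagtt
Gadl1, start at 115909455 (chr9:115909205-115909454): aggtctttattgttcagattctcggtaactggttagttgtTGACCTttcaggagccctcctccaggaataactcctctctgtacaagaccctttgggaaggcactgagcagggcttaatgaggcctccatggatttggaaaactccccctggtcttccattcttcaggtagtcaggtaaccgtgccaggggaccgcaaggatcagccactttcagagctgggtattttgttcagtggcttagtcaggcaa

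The hexamer AGGTCA, which many nuclear receptors bind in pairs, was searched on both strands in windows of 300 bases that also hold 50 bases after the start. Neither Csad window and not the Ado window held it, the Gadl1 window held it once on the opposite strand, beginning 210 bases before the start, and 16.3% of 32851 promoter windows of that length held at least 1 copy. The hexamer as a direct repeat with 4 bases between, or as an inverted repeat with 1 base between, was in none of these member windows, and in 0.0152% and 0.00913% of all windows. These matches describe letters in short windows alone.

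All 10 arrays read as liver, and they fell into 2 sets in technical measures. The mean of the 6 hepatocyte marker genes (Alb, Apoa1, Ttr, Tat, Fgb and Serpina1c) lay between 14.40 and 14.54 on every array. Kidney markers averaged between 4.73 and 5.50, and the highest value was that of control replicate 2, where Kap stood at 7.76 against 5.41 to 6.13 in the other controls. Phenobarbital acted in every treated liver: Cyp2b10, its classical target, measured 13.45 to 13.56 in the 5 treated animals and 5.62 to 7.07 in the controls. Spike-in transcripts with a poly-A tail, which are added during sample preparation, read 7.77 to 8.64 (mean of 24 probe sets) in control replicates 1, 2, 3 and 5, but 6.40 on control replicate 4 and 5.76 to 6.58 on the treated arrays. The difference between 3′ and 5′ actin probe sets, a sign of RNA quality and labelling, split the same way: it was 1.46 to 1.78 on those 4 arrays, 1.28 on control replicate 4 and 1.19 to 1.33 on the treated arrays. Spike-ins added at hybridisation read 10.95 to 11.30 on the 4 arrays, 10.65 on control replicate 4 and 10.54 to 10.74 on the treated arrays. No label names a batch, and the part of these measures in the results was not tested. A fit with this spike-in set as a block compares the 5 treated animals with control replicate 4 alone, so the set and that animal cannot be told apart. Its values are given below as those within the set.

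Csad was lower in every treated liver, below the lowest control. It measured 10.56, 11.11, 11.32, 11.49 and 10.27 in control replicates 1 to 5, and 9.45, 8.82, 8.81, 8.75 and 8.61 in phenobarbital replicates 1 to 5. The groups were 0.82 apart, with control replicate 5 the lowest control and phenobarbital replicate 1 the highest treated animal. The difference was -2.06 ± 0.22 (log2, SE, n = 5 per group), which is 4.18-fold lower and ranks first from the bottom among 18193 genes. Set against the geometric mean of the controls, phenobarbital replicates 2 to 5 held 19.8% to 22.8% and phenobarbital replicate 1 held 35.4%, while single controls ran from 62.4% to 145%. Control replicate 4, which shares the low spike-in values of the treated arrays, was the highest control, and within the set the Csad difference was -2.60 ± 0.35 (SE). With 1 control animal left out at a time, or 1 treated animal, it stayed between -2.23 and -1.93, and it was -2.02 without control replicate 2.

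**Figure D1:**
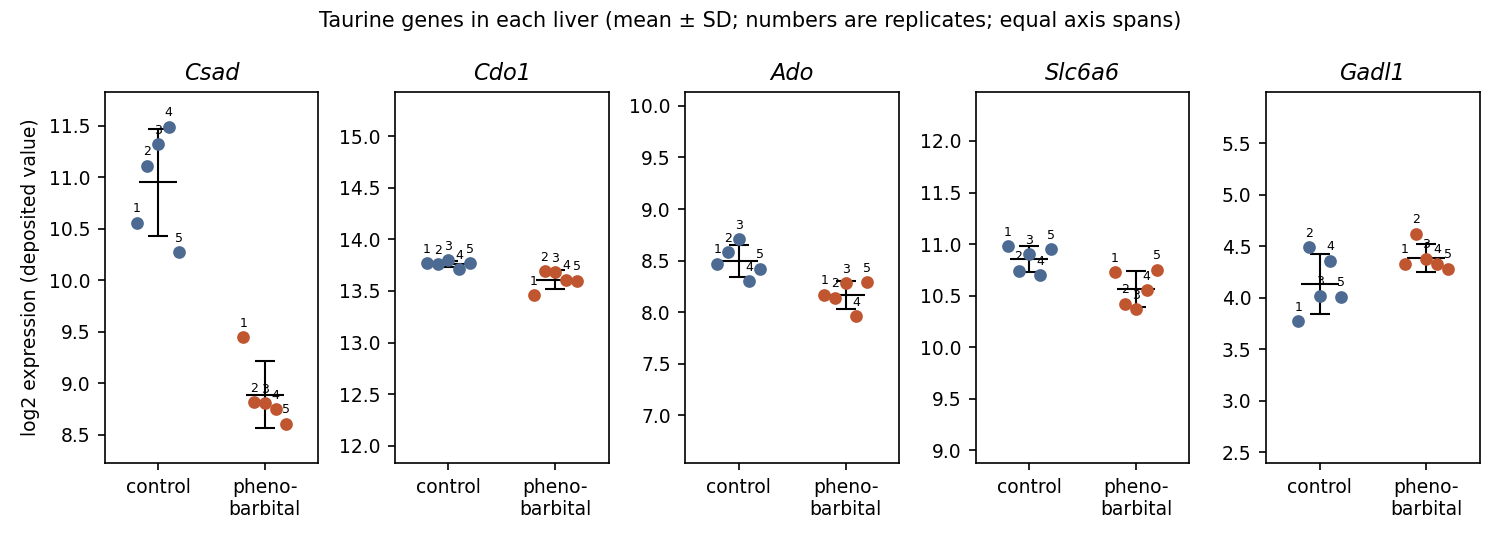
Deposited log2 expression of the 5 genes in each liver, on the probe set with the highest mean, with all y axes spanning the same number of log2 units. Points are animals numbered by replicate, and bars are the mean and SD of 5 animals. Csad runs from 10.27 to 11.49 in controls and from 8.61 to 9.45 in treated animals, while the other genes differ by less than 0.35.

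Csad also differed between animals of the same group. Csad was chosen for its low value in treated animals, and such a choice can favour genes that vary widely. Its spread is therefore a description, and the shares given are over genes of every level. Its SD was 0.517 among controls, above that of 99.5% of the 18193 genes (median SD 0.141), and 0.325 among treated animals, above that of 97.3% (median 0.113). Csad has a single probe set on this array, of the type that reads several transcripts of 1 gene, so transcripts from its different starts are not told apart. Cdo1, which feeds Csad, was the steadiest of the group among controls, with an SD of 0.0327, above that of 0.896% of genes. Cdo1 lies near the top of the scale, where control SDs of other genes included 0.0164 for Alb, 0.0335 for Bhmt and 0.158 for Cth. The part of the level in its SD was not tested.

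Cdo1 was slightly lower in treated livers. The controls measured 13.77, 13.76, 13.80, 13.71 and 13.77, and the treated animals 13.46, 13.69, 13.68, 13.61 and 13.60. The groups were apart by 0.02, with phenobarbital replicate 1 the lowest of all. The difference was -0.15 ± 0.06 (SE, n = 5), or 1.11-fold lower, and -0.10 within the set. The values lie near the top of the deposited scale, which ends at 15.13, and whether the signal is compressed there was not tested. On the array scale Csad and Cdo1, consecutive enzymes of 1 route, therefore showed log2 differences of -2.06 and -0.15.

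Ado was lower on the probe set with the highest mean and mixed on the others. That probe set measured 8.47, 8.58, 8.71, 8.30 and 8.42 in controls and 8.17, 8.14, 8.28, 7.96 and 8.29 in treated animals, groups that stood 0.01 apart. The difference was -0.33 ± 0.09 (SE, n = 5), or 1.26-fold lower. Control replicate 4 was the lowest control, and within the set the difference was -0.13. A second Ado probe set, with a control mean of 6.94, gave -0.32 ± 0.10 (SE) with overlapping groups. The remaining 2 were dimmer, with control means of 5.87 and 5.65, and gave 0.16 ± 0.08 and 0.27 ± 0.09 (SE). The mean over all 4 was -0.0525. On the first probe set the call was lost when control replicate 2 or 3 was left out, or phenobarbital replicate 4, with differences from -0.38 to -0.27 over the 10 omissions of an animal. The probe sets of Ado thus disagree in direction, with the 2 brighter ones lower and the 2 dimmer ones higher. Which of them reads the full transcript was not tested.

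Slc6a6, the taurine transporter gene, was lower on its brightest probe set with overlapping groups. The controls measured 10.98, 10.74, 10.90, 10.70 and 10.95, and the treated animals 10.73, 10.42, 10.37, 10.55 and 10.75. Phenobarbital replicates 1 and 5 lay within the control range and the other treated animals below it. The difference was -0.29 ± 0.09 (SE, n = 5), or 1.22-fold lower, and -0.14 within the set, where control replicate 4 was again the lowest control. The other Slc6a6 probe sets, with control means of 9.03, 5.11 and 6.37, gave -0.25 ± 0.11, 0.00 ± 0.06 and 0.16 ± 0.07 (SE). The mean over all 4 was -0.093. The call of the brightest was lost when control replicate 1, 3 or 5 was left out, or phenobarbital replicate 2, 3 or 4, with differences from -0.34 to -0.24 over the omissions.

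Some markers of other liver cells were called (limma adjusted p under 0.05 over all genes), where 11.3% of all genes were called lower and 9.02% higher. Of 6 endothelial markers 4 were called lower (Stab2, Clec4g, Kdr and Cdh5) and none higher, with a mean level of 8.05 to 8.54 in controls and 7.79 to 8.23 in treated animals. Of 6 stellate cell markers 3 were called lower (Lrat, Dcn and Reln) and none higher, with 8.40 to 8.55 against 7.94 to 8.32. The endothelial count was 2 with quantile normalisation and 1 with median centring, and it ranged from 1 (control replicate 1 or 2 or phenobarbital replicate 4 left out) to 4 over omissions of an animal, while the stellate count was 3 under each of these. None of these 7 was called within the set, although their differences there were not all smaller: Stab2 stood at -0.65 (-0.41 on all arrays), Dcn at -0.63 (-0.55), Reln at -0.50 (-0.43), Lrat at -0.66 (-0.86), Clec4g at -0.29 (-0.32), Cdh5 at -0.22 (-0.33) and Kdr at -0.11 (-0.30). The 7 Kupffer cell and 6 leukocyte markers gave no call. Of the cholangiocyte markers 1 of 4 (Epcam) and of the red cell markers 1 of 2 (Alas2) were called higher, and no kidney marker was called. Log2 array values have no zero, so no marker can be called absent. In whole liver RNA, fewer cells of a type and less RNA per cell cannot be told apart, and the part of these cells in the values of Csad, Ado and Slc6a6 was not tested. The 6 hepatocyte markers gave no call in either direction. They lie near the top of the deposited scale, which ends at 15.13, and whether the signal is compressed there was not tested.

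Gadl1 was near the bottom of the scale in both groups. Its higher probe set measured 3.77, 4.49, 4.02, 4.36 and 4.01 in controls and 4.33, 4.62, 4.38, 4.33 and 4.28 in treated animals. All 10 values were below the median of every array (5.42 to 5.50), the groups overlapped, and the difference was 0.26 ± 0.12 (SE, n = 5) and 0.03 within the set. The second probe set gave 0.15 ± 0.10 (SE) and -0.26 within the set. A fall from a level this low may not be detectable on this scale.

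Counted over the group, 3 of the 5 members (Csad, Ado and Slc6a6) were past an adjusted p of 0.05 in limma over all 18193 genes, all lower and none higher, where 11.3% of all genes were called lower and 9.02% higher. With the spike-in set as a block only Csad of the 5 was called, where 0.786% of all genes were. The groups did not overlap in 3 members (Csad, Cdo1 and Ado), where they did not overlap in 12.9% of all genes. Of the 12 probe sets tested singly 4 were called, all lower (1 of Csad, 2 of Ado and 1 of Slc6a6), where 18.7% of 45037 probe sets were called. By mean, 6 probe sets were lower, 5 higher and 1 equal. As the members were chosen from this contrast, nothing is read from these counts.

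**Figure D2:**
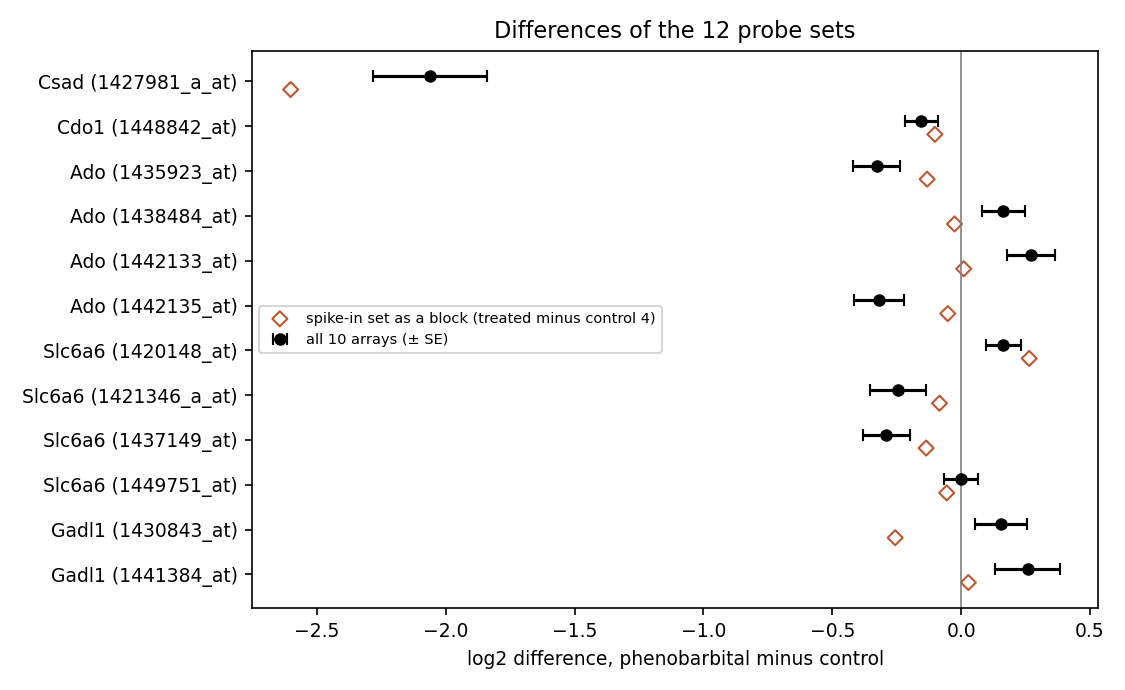
Log2 difference, phenobarbital minus control, of each of the 12 probe sets. Filled points use all 10 arrays with bars of 1 SE, and open diamonds are the values with the spike-in set as a block. Csad stands at -2.06 and -2.60, and every other probe set lies between -0.33 and 0.27 in both.

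Control replicate 4 stood differently to the treated animals for the 3 genes called lower. Among the 6 arrays with low spike-in values, control replicate 4 stood at 11.49 for Csad against 8.61 to 9.45 in the treated animals. For Ado it stood at 8.30 against 7.96 to 8.29, and for Slc6a6 at 10.70 against 10.37 to 10.75. Within that set the difference was thus -2.60 for Csad against -2.06 on all arrays, -0.13 for Ado against -0.33, and -0.14 for Slc6a6 against -0.29. The values within the set rest on control replicate 4 as the only control. Whether they differ from those on all arrays was not tested.

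**Figure D3:**
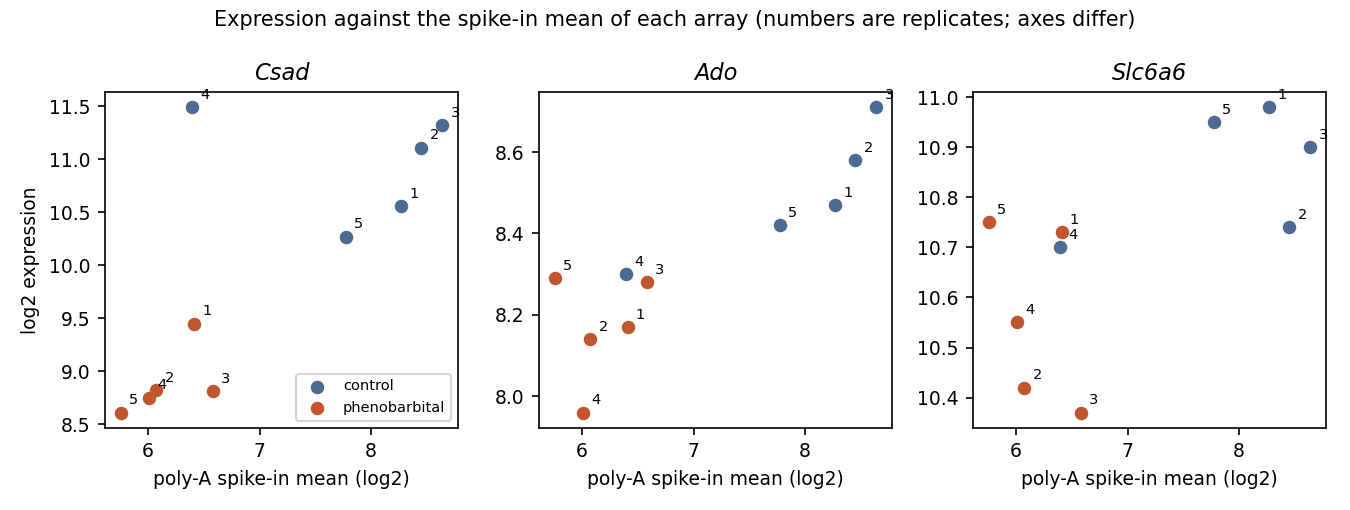
Log2 expression of Csad, Ado and Slc6a6 against the poly-A spike-in mean of the same array (log2), with points numbered by replicate and y axes that differ. Control replicate 4 lies among the treated arrays on the x axis, at 6.40, and is the highest Csad value at 11.49 but close to the treated animals for Ado at 8.30 and Slc6a6 at 10.70.

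Genes around the taurine route were called about as often as all genes. Of 93 genes on 10 lists covering the supply, competing use and handling of cysteine and taurine, 86 were measured. Of these 7 were called higher and 12 lower by limma (adjusted over all genes), beside 9.02% higher and 11.3% lower among all genes, with a median log2 difference of 0.04 against 0.01 over all genes, and none was called with the spike-in set as a block. The counts of single lists below rest on 5 to 13 genes and are to be read against those shares. The lists were drawn up with earlier results of these data known, and the adjusted p-values come from the fit over all 18193 genes.

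Upstream of cysteine, 3 of 10 measured genes of the methionine to cysteine route fell and none rose (median -0.08). Cbs, cystathionine beta-synthase, fell by 0.24 ± 0.07 (log2, SE, n = 5; limma adjusted p = 0.0233), from 11.69 to 11.87 in controls to 11.39 to 11.63 in treated animals, and its value within the set was -0.38. Mat1a, which makes S-adenosylmethionine in liver, fell by 0.21 ± 0.06 (SE; limma adjusted p = 0.0315), and Bhmt2, a methyltransferase that regenerates methionine, fell by 0.20 ± 0.06 (SE; limma adjusted p = 0.0273). The groups did not overlap in any of the 3, nor in Bhmt, which was not called (-0.15, limma adjusted p = 0.0618). Among all genes they did not overlap in 12.9%. Cbs and Bhmt2 each have a second probe set that was not called, at -0.02 and -0.054, and the means of their probe sets, -0.13 for both, were not called (limma adjusted p = 0.307 and 0.0815). Cth, cystathionine gamma-lyase, the enzyme that releases cysteine, stood at 13.49 ± 0.16 and 13.50 ± 0.07 (SD, n = 5; limma adjusted p = 0.954). Each of the 3 falls lost its call in 3 to 7 of 10 omissions of a single animal (Cbs without phenobarbital replicate 1, 2 or 3), where limma's adjusted p reached 0.053 for Cbs, 0.065 for Bhmt2 and 0.073 for Mat1a, and that of Mat1a also with replicate number as a block.

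Cysteine uptake had 1 of 5 genes called. Slc1a1, a glutamate transporter that also carries cysteine, rose by 0.53 ± 0.09 (SE; limma adjusted p = 0.00273) from 4.40 to 4.64 in controls to 4.85 to 5.28 in treated animals, low values on this scale. Of its 3 probe sets 1 was called, and their mean was 0.21 (limma adjusted p = 0.0258).

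Glutathione, which competes for cysteine, had 1 of 12 measured genes higher and 4 lower (median -0.11). Ggct, which breaks down gamma-glutamyl peptides, fell by 0.61 ± 0.10 (SE; limma adjusted p = 0.00205), and its other 2 probe sets were not called, which leaves a mean of -0.18 over the 3. Gclc, the catalytic subunit of the rate-limiting enzyme of glutathione synthesis, fell by 0.35 ± 0.12 (SE; limma adjusted p = 0.0488), with phenobarbital replicate 1 at 12.25, inside the control range of 11.90 to 12.37, and the other treated animals at 11.67 to 11.82. The second Gclc probe set stood at 0.06. Chac2, a glutathione-degrading enzyme, fell by 0.36 ± 0.12 (SE; limma adjusted p = 0.0485), and Ggt6, a gamma-glutamyltransferase family gene, rose by 0.47 ± 0.12 (SE; limma adjusted p = 0.0165). The calls of Gclc and Chac2 were lost in 8 and 9 of 10 omissions of a single animal (limma adjusted p up to 0.113 and 0.0968), and within the set they stood at -0.07 and -0.02. Among 9 genes that break cysteine down to sulphide and sulphate, Kyat3, a cysteine conjugate beta-lyase, rose by 0.25 ± 0.07 (SE; limma adjusted p = 0.0251) and no other gene was called. Its call was lost when control replicate 3 was left out, or phenobarbital replicate 2, 4 or 5.

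**Figure D4:**
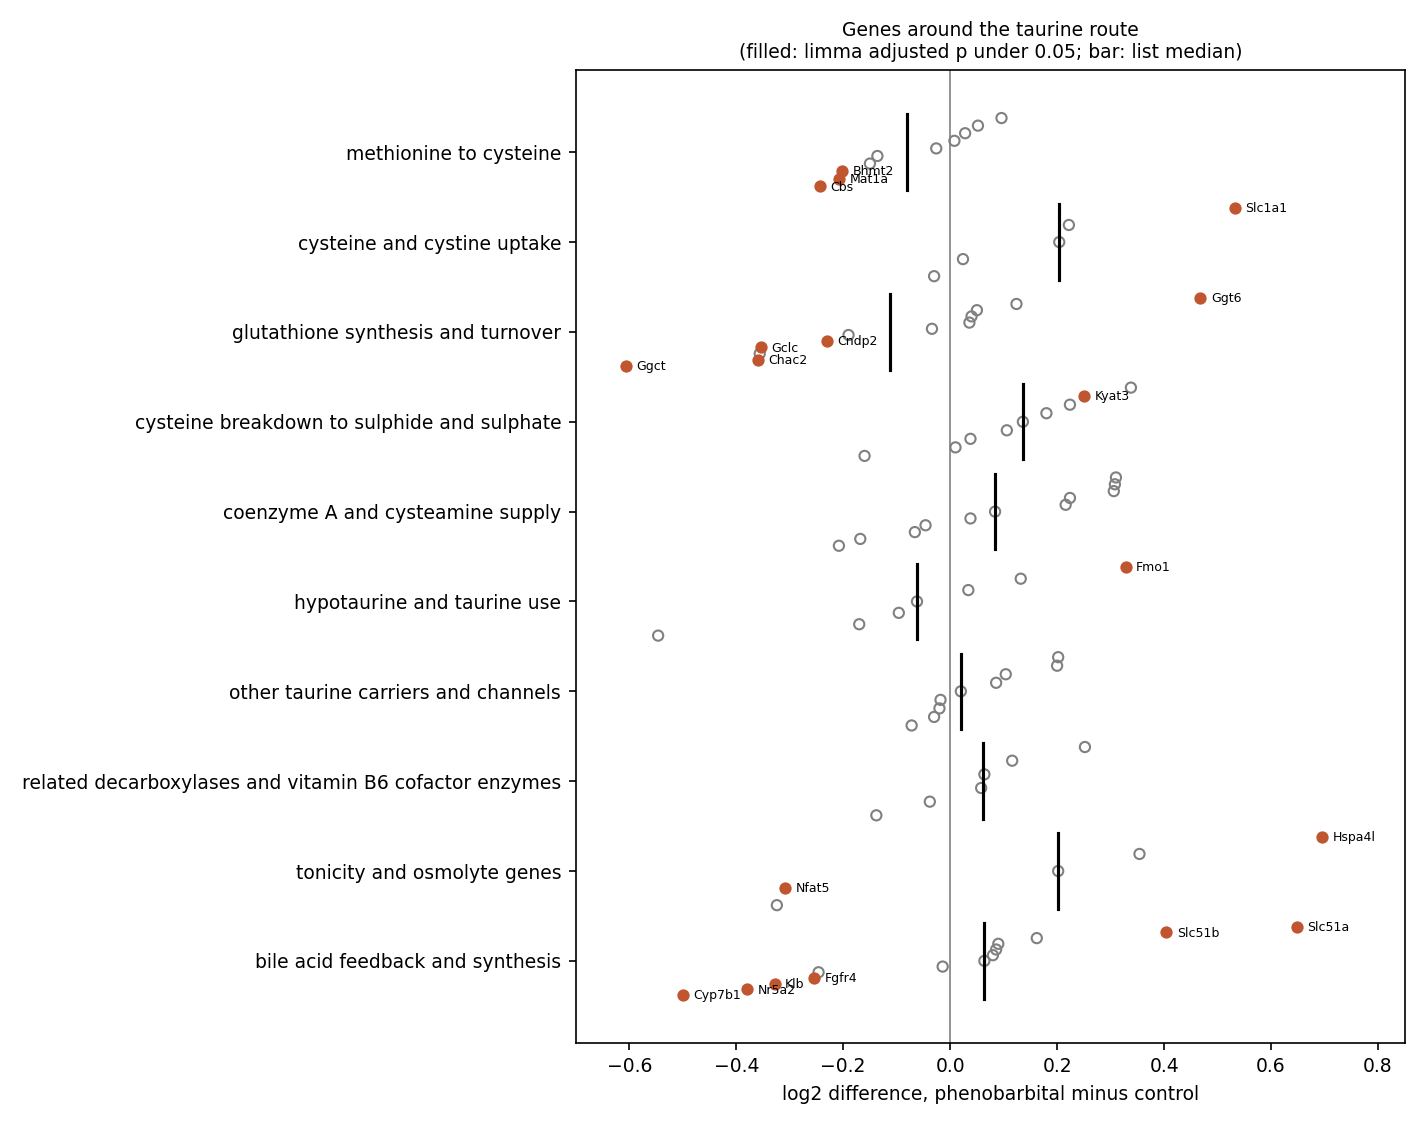
Log2 difference, phenobarbital minus control, of each measured gene of 10 lists around the taurine route. Filled points are genes past an adjusted p of 0.05 in limma over all genes and are named, open points are the rest, and black bars are list medians. All points lie between -0.61 and 0.70, far from the Csad value of -2.06.

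The supply of cysteamine, the substrate of the enzyme encoded by Ado, gave no call among 11 genes of coenzyme A synthesis and breakdown. With quantile normalisation 2 were called higher, and with the mean over probe sets 2 were called lower. Vnn1, the pantetheinase that releases cysteamine, stood at 7.79 ± 0.40 and 8.10 ± 0.39 (SD, n = 5; limma adjusted p = 0.293). Its difference was 0.31 on all arrays and 0.97 within the set, where control replicate 4 had the lowest Vnn1 of all animals, at 7.13. The gene of this list with the smallest p was Slc5a6, the pantothenate carrier, with a difference of 0.22 ± 0.08 (SE; limma adjusted p = 0.0858).

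Downstream of Csad, 1 of 7 measured genes of hypotaurine and taurine use rose and none fell (median -0.06). Fmo1, a flavin monooxygenase that can oxidise hypotaurine to taurine, measured 11.38, 11.35, 11.23, 11.43 and 11.21 in controls and 11.64, 11.72, 11.81, 11.60 and 11.47 in treated animals. Every treated animal was above every control, by a difference of 0.33 ± 0.08 (SE; limma adjusted p = 0.0109) that was called in all 10 omissions of an animal and stood at 0.22 within the set, where it was not called. Baat, which couples taurine to bile acids, had a difference of -0.10 ± 0.07 (SE; limma adjusted p = 0.34).

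Among 9 other taurine carriers and channels none was called on the deposited values. With quantile normalisation 2 were called higher and with median centring 1, Lrrc8d being called in both. Slc6a13, a liver carrier of GABA and taurine, had means of 11.17 ± 0.02 and 11.19 ± 0.10 (SD, n = 5; limma adjusted p = 0.848), and Lrrc8d, a subunit of the volume-regulated channel that lets taurine out, had a difference of 0.20 ± 0.07 (SE; limma adjusted p = 0.0653). None of 6 related decarboxylases and vitamin B6 enzymes was called, while 1 was called higher without control replicate 4. Gad1, a glutamate decarboxylase, stood at 5.46 ± 0.20 and 5.42 ± 0.06 (SD, n = 5; limma adjusted p = 0.797), and Pdxp, a pyridoxal phosphatase, had a difference of 0.25 ± 0.14 (SE; limma adjusted p = 0.214). Of 5 tonicity genes, Hspa4l, a heat shock family chaperone, rose by 0.70 ± 0.14 (SE; limma adjusted p = 0.00559) and Nfat5, the tonicity-responsive transcription factor whose known targets include Slc6a6, fell by 0.31 ± 0.10 (SE; limma adjusted p = 0.044). The Nfat5 call was lost in 8 of 10 omissions of an animal (limma adjusted p up to 0.106). With all probe sets tested singly, 1 of 6 for Nfat5 was called lower (range -0.69 to -0.03). The one used here was not (limma adjusted p = 0.0502). A relation of Nfat5 to Slc6a6 was not tested. Within the set Hspa4l stood at 0.25 and Nfat5 at -0.11, neither called.

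Bile acid genes were examined because in mice bile acids acting through the receptor FXR (Nr1h4) and the repressor SHP (Nr0b2) are known to lower Csad. Of 13 genes 2 rose and 4 fell (median 0.06). The bile acid exporter subunits Slc51a and Slc51b rose by 0.65 ± 0.09 (SE; limma adjusted p = 0.00102) and 0.40 ± 0.12 (SE; limma adjusted p = 0.0361). Both were without overlap of the groups, as were 12.9% of all genes. Slc51a ran from 4.77 to 5.29 in controls and from 5.69 to 5.84 in treated animals, low values on this scale. Cyp7b1, a hydroxylase of the alternative bile acid route, fell by 0.50 ± 0.15 (SE; limma adjusted p = 0.0371), and the nuclear receptor Nr5a2 fell by 0.38 ± 0.11 (SE; limma adjusted p = 0.033). Slc51a kept its call in all 10 omissions of an animal, while Cyp7b1 lost it in 7 (limma adjusted p up to 0.0928) and Slc51b and Nr5a2 in 5 each (up to 0.078 and 0.0756). Of the probe sets of Cyp7b1 2 of 3 were called lower (-0.70 to 0.03), and of Nr5a2 2 of 4 (-0.87 to 0.11). Within the set Slc51a stood at 0.45, Slc51b at 0.24, Cyp7b1 at -0.68 and Nr5a2 at -0.26, none called. Nr0b2 measured 9.13, 10.57, 10.19, 9.33 and 9.99 in controls and 8.17, 9.91, 8.99, 10.41 and 10.50 in treated animals, so the groups overlapped widely (difference -0.25 ± 0.41 SE; limma adjusted p = 0.705). Phenobarbital replicate 1, the treated animal with the highest Csad, had the lowest Nr0b2. Among controls, where Csad ran from 10.27 to 11.49, replicate 1 had the lowest Nr0b2 with a Csad of 10.56. Control replicate 2 had the highest Nr0b2 with a Csad of 11.11. No relation was tested. Cyp7a1, the rate-limiting enzyme of bile acid synthesis, had a difference of 0.08 ± 0.23 (SE; limma adjusted p = 0.831).

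**Figure D5:**
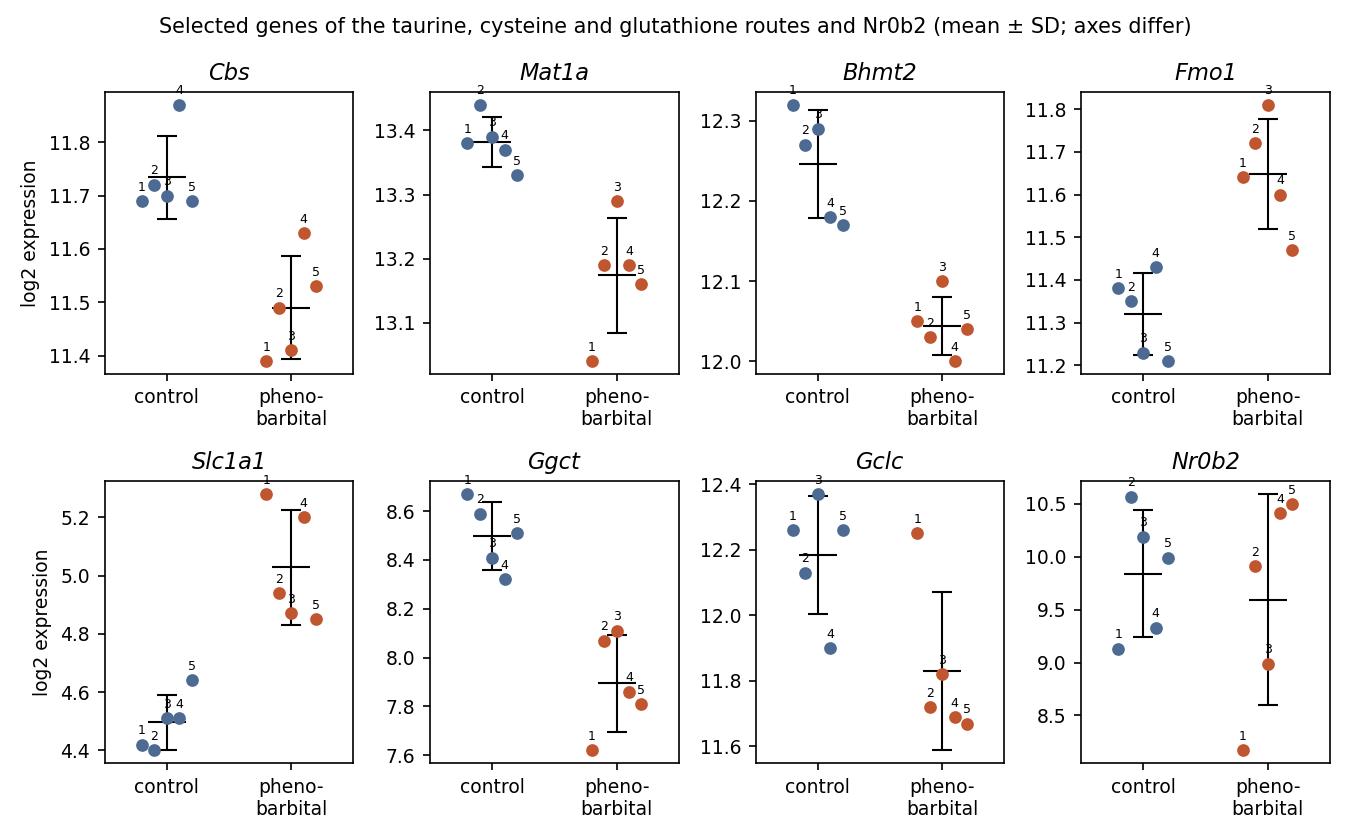
Log2 expression of 8 genes in each liver, with points numbered by replicate, bars for the mean and SD of 5 animals, and y axes that differ between panels. Cbs, Mat1a, Bhmt2 and Ggct are lower and Fmo1 and Slc1a1 higher in every treated animal than in every control, while Gclc and Nr0b2 overlap.

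The genes that varied most like Csad between animals of the same group were sought among 9094 genes with a mean above that of the median gene. Likeness was Pearson's r of the deviations from the group mean over all 10 animals, which leaves out the difference between groups and is a description of animals that share arrays. The highest values were 0.93 for Nme2, 0.93 for Dnase2a, 0.90 for Lurap1l, 0.89 for Clu and 0.88 for Zfp777, and the lowest were -0.92 for Actl7b, -0.89 for Samhd1 and -0.88 for Mtmr12. Among so many genes high values are found readily. Dnase2a, which encodes a lysosomal DNase, also differed between the groups. It measured 10.37, 11.24, 11.54, 11.41 and 10.46 in controls and 9.79, 9.20, 9.35, 9.47 and 9.0 in treated animals, with control replicates 1 and 5 the lowest controls and phenobarbital replicate 1 the highest treated animal, as for Csad. It fell by 1.64 ± 0.22 (SE; limma adjusted p = 0.000713), and stood at -2.05 within the set, where it was also called (limma adjusted p = 0.0298). Without the 2 animals farthest from the median of the Csad deviations (phenobarbital replicate 1 and control replicate 4), its r was 0.92. Of the other 7 genes, Zfp777 was called between the groups (0.36 ± 0.08 SE, limma adjusted p = 0.0114), in the direction opposite to Csad. Over the same 10 animals the members Cdo1, Ado, Slc6a6 and Gadl1 had r values with Csad of -0.48, 0.08, -0.25 and 0.45.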

How the data were processed

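Whole liver RNA of 10 animals was measured on Affymetrix arrays after oligo(dT) priming and in vitro transcription with biotin, per the labels' protocols, so signals come from the 3′ part of polyadenylated RNA. The authors deposited 1 log2 expression value per probe set and array (2.34 to 15.13). The scale was read from that range. GCOS is named per the submitters' processing notes, and summarisation and normalisation are not given in the sources used here. Quartiles differed between arrays by at most 0.16 and the values were used as deposited. Precision is limited by having 5 arrays in each group. The animals are separate per the labels, and no 2 arrays were identical (highest correlation 0.997).

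Of 45101 probe sets, 34945 had 1 gene symbol, 932 several and 9160 none in the platform annotation, besides 64 controls. Symbols matched RefSeq by Entrez ID for 34741 without change. Each gene was taken on its probe set with the highest mean. Differences between treated and control animals were fitted with limma 3.58.1 under R 4.3.3 (two-sided, Benjamini-Hochberg over 18193 genes), tested on simulated data. The replicate number as a block was an alternative: deviations of same-numbered animals correlated between -0.02 and 0.12, so the numbers were not taken to pair animals. Members, lists and the naming rule (all members, up to 4 called genes per list or else the gene with the smallest p, 12 genes by name, and the 8 genes most and least like Csad) were chosen with earlier results of these data known. Of the listed genes, 7 of 93 around the route are not analysed here, and a planned comparison of protein sequences was not run. Figures were drawn with matplotlib 3.10.9.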

Additional observations from a re-analysis of the deposited data

Results flagged for a closer look

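Within a group of 5 animals, a value was singled out when its gap to the nearest other animal was over 0.71 of the range of the group (Dixon's test). This was run on 78 groups of animals and chance singles out about 5% of such groups. It singled out 5. Phenobarbital replicate 1 stood at 9.45 for Csad, where the other treated animals lay between 8.61 and 8.82. Control replicate 4 stood at 6.67 on an Ado probe set, where the other controls lay between 6.95 and 7.03, and at 11.87 for Cbs, where they lay between 11.69 and 11.72. Phenobarbital replicate 1 also stood at 12.25 for Gclc, against 11.67 to 11.82. Phenobarbital replicate 4 stood at 6.93 for Slc51b, against 6.40 to 6.54.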

How the results depend on the processing

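Csad kept its direction under every alternative run, from -2.60 with the spike-in set as a block to -1.93 without control replicate 4. It had no single-transcript probe set to try. The members were chosen from this contrast and the runs reuse the same arrays, so their calls kept or lost describe the processing alone. Ado lost its call with the mean of its probe sets (-0.0525), with the block (-0.13) and without control replicate 2 or 3 or phenobarbital replicate 4 (-0.38 to -0.27 over all 10 omissions). Slc6a6 lost it with quantile normalisation (-0.27), median centring (-0.26), the mean of its probe sets (-0.093), the block (-0.14), and in 6 of 10 omissions (control replicate 1, 3 or 5, phenobarbital replicate 2, 3 or 4; -0.34 to -0.24). Cdo1 gained one with trend and robust variance (-0.15). Genes called higher and lower numbered 1641 and 2051. They numbered 88 and 55 with the block, 3466 and 4959 when all probe sets were tested singly, and 838 higher among the brighter genes alone. Over the omissions the higher calls numbered 1021 to 2206, with 1083 without control replicate 2, 1087 without control replicate 3 and 1021 without phenobarbital replicate 2. With the replicate number as a block 1621 were higher and 2043 lower, Csad stood at -2.06 with its call, Mat1a alone of the named genes around the route lost one, and 3 rather than 4 endothelial markers were called. Of 16 named genes around the route that were called, none was called with the spike-in set as a block and 6 were called in every omission. Directions turned for Ggct on a single-transcript probe set (0.16) and for values that were never called: Cth (-0.018 after quantile normalisation, -0.19 with the block, -0.0375 to 0.0575 over omissions), Cyp7a1 (-0.10 with the mean of probe sets, -0.50 with the block, -0.10 to 0.22 over omissions), Gad1 (0.01 with the mean of probe sets, -0.11 to 0.018 over omissions), Baat (0.078 on a single-transcript probe set), Nr0b2 (0.27 with the block, -0.47 to 0.11 over omissions) and Slc6a13 (-0.009 to 0.0585 over omissions). Pdxp, not called on all arrays, turned to -0.22 with the block. Median centring lost the calls of Mat1a, Bhmt2, Gclc, Chac2, Nfat5 and Nr5a2, and quantile normalisation those of Chac2 and Nfat5. The mean of probe sets lost those of Cbs, Bhmt2 and Gclc, and testing all probe sets singly those of Gclc, Chac2 and Nfat5. Cyp7b1 lost its call with trend and robust variance, and Bhmt2 on a single-transcript probe set. The causes of these changes were not tested.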
